A study of Caenorhabditis elegans with 16 samples.

Results

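H3K9me3, trimethylation of lysine 9 of histone H3, was compared between early Caenorhabditis elegans embryos of the met-2(n4256) strain and the H3K9me3 library labelled set-25(n5021), along the genome. The members of the comparison were 500 bp windows in which all 4 input libraries of the series reached 20 counts, which kept 191140 of 198087 windows (96.5%). The value of a window was its log2 enrichment, the ChIP over the input of the same strain label after scaling each library to its total (CPM, counts per 1e6 counts). The difference was met-2 minus the set-25-labelled library. Both alleles lie on chromosome III, and both strains were kept at 20 °C, with embryos taken before the bean stage from worms grown for 60 to 65 h after synchronization. The labels list 2 biological replicates each for ChIP and input of each strain, but the deposited table has 1 column for each of these 4 groups and does not say whether it is 1 replicate or a sum. The name of the met-2 ChIP column ends in 1, which may or may not stand for replicate 1, and the other names have no such ending. No wild type is among the samples, no spread between replicates could be estimated and no test was run. Differences are therefore described by size, and the intervals given are 95% intervals that cover counting error only.

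MET-2 is the worm relative of mammalian SETDB1 and makes mono- and dimethylated H3K9. SET-25 is the enzyme that makes H3K9me3 in worm embryos, and both act in silencing repeats and in holding heterochromatin at the nuclear periphery. H3K9me in worms is concentrated on the chromosome arms, and the middle of the autosomes carries it in fewer places.

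The genotype was examined first, at the windows of the mutated genes. In the met-2 windows, 1 kb on chromosome III from 8376501 to 8377500, the met-2 ChIP held 6 and 0 counts per 500 bp and the met-2 input 0 and 0, where the windows around them predicted 449 and 1225 in all. The ChIP labelled set-25 held 15 and 0 counts there, 0.108 times the 140 predicted (0.060 to 0.177), and its input 0 and 2 of 608. The met-2 windows were thus nearly empty in all 4 H3K9me3 libraries, under both strain labels. In the H3K9me2 libraries of set-25 the same windows held 74 counts in the ChIP and 513 in the input, 1.22 and 0.897 times the prediction.

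In the set-25 windows, 1.5 kb on III from 13287501 to 13289000, the met-2 ChIP held 204, 479 and 756 counts and the met-2 input 472, 1967 and 1893. The ChIP labelled set-25 held 248, 556 and 627 counts, 1.39 times the prediction from its flanks (1.32 to 1.46), while the input labelled set-25 held 0, 0 and 2 of 806 predicted. The set-25 windows were thus filled in the ChIP labelled set-25 and missing from the input that goes with it. The H3K9me2 ChIP and input of set-25 held 6 and 4 counts there.

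Neither H3K9me3 library labelled set-25 had the pattern of a set-25 single mutant, which has the met-2 windows and lacks the set-25 windows. Its input lacked both, and its ChIP was low in the met-2 windows and filled in the set-25 windows. The ChIP and the input thus differed from each other at the set-25 windows. Each enrichment given under this label is a ChIP over an input that may not match it in genotype. The genotype behind these libraries cannot be named from the counts, and they are called the set-25-labelled library below. A difference from met-2 is a difference from that library and cannot be read as the effect of SET-25.

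**Figure D1:**
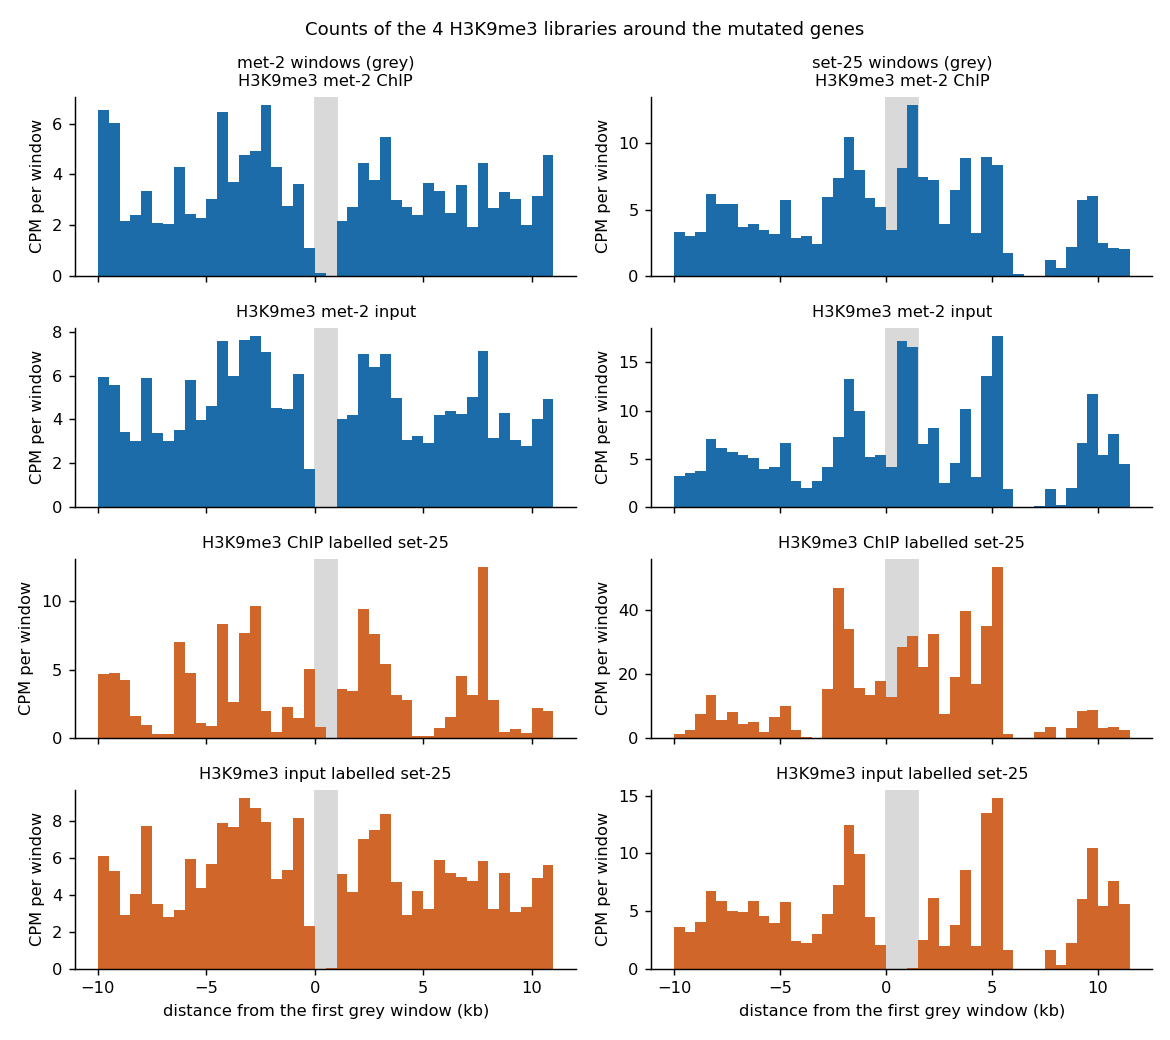
Counts scaled to the library total (CPM) per 500 bp window of the 4 H3K9me3 libraries around the met-2 windows (left column, grey) and the set-25 windows (right column, grey), against the distance from the first grey window in kb. Both inputs and both ChIPs are at or near 0 in the met-2 windows, while in the set-25 windows the input labelled set-25 alone is empty and the ChIP labelled set-25 stands on a raised stretch.

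The set-25 windows lay within a longer stretch of adjacent windows above 0.5 in the set-25-labelled library. Over these 8.5 kb, from 13284501 to 13293000, the met-2 ChIP averaged 7.17 CPM per window and the met-2 input 8.78, whereas the ChIP labelled set-25 averaged 25.9 CPM and its input 5.55. In the 10 kb to the left, from 13274501 to 13284500, the averages were 3.46 and 4.28 CPM in the met-2 ChIP and input and 4.58 and 4.20 CPM in the ChIP and input labelled set-25. Leaving out the missing windows, enrichment on the left side (3 kb) was -0.08 in met-2 against 1.79 in the set-25-labelled library, and on the right side (4 kb) -0.28 against 2.08. With the H3K9me2 input of set-25 as denominator the values of the ChIP labelled set-25 became 2.24 and 2.82. The windows directly beside the missing ones were included, although their inputs were low. The input labelled set-25 held 2.085 and 2.49 CPM there (met-2 input 5.33 and 6.51), and the H3K9me2 input of set-25 held 2.67 and 0.87 CPM. A low input raises enrichment, and the share of these windows in the values was not tested. Next to the met-2 windows no such rise was seen: the 10 kb to their left stood at -0.43 in met-2 and -0.70 in the set-25-labelled library.

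The met-2 ChIP held 58645635 counts and its input 114221896, and the ChIP and input labelled set-25 held 19732750 and 49395989. The median kept window held 204 and 488 counts in met-2, and 72 and 227 under the set-25 label. The ChIP labelled set-25 was empty in 16520 kept windows (8.64%), against 1 window of the met-2 ChIP. Empty windows were not evenly spread: they made up 20.8% of the right arm of IV, which carries much of the larger piRNA gene cluster, 12.4% of the middle of V and 11.7% of the middle of IV, and 4.63% to 9.05% of each of the other 13 chromosome parts. The median empty window still held 103 counts in the met-2 ChIP, 268 in the met-2 input and 126 in the input labelled set-25. For these windows both libraries were read from the sum of their 5 kb bin, and in 68 of them that bin was empty as well. Read in this way, 20.9% of the empty windows were at least 2-fold higher in met-2 and 3.52% lower. Among 5 kb bins these shares were 10.4% and 12.3%, but an empty window also lowers the ChIP labelled set-25 in its own bin. Windows with a count, at 23.1% and 21.4%, were read singly and are not of the same unit.

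Of all kept windows, 43798 (22.9%) had H3K9me3 2-fold or more above the set-25-labelled library in met-2, and 37953 (19.9%) had it 2-fold or more below. The median difference was -0.04 (quartiles -0.82 and 0.90), with both libraries scaled to their totals. At a difference of 2 on the log2 scale the shares separated, to 8.75% higher and 1.93% lower. In 5 kb bins, where the median bin held 2103 counts in the met-2 ChIP and 892 in the ChIP labelled set-25, 10.4% were higher in met-2 and 12.3% lower. The order of the shares thus depended on the window size. The spread of 500 bp windows was wider in the set-25-labelled library. With empty windows read from 5 kb sums the SD was 0.65 in met-2 and 1.11 in the set-25-labelled library. With empty windows at their 500 bp value the SDs were 0.66 and 1.62, and in 5 kb bins they were 0.58 and 0.63.

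Most windows that were higher in met-2 were not themselves enriched for H3K9me3 in met-2. Of the 43798, 6579 (15.0%) were enriched more than 2-fold over input in met-2, while 80.7% were depleted more than 2-fold in the set-25-labelled library, and the median met-2 value was -0.07. Of the 37953 that were lower in met-2, 30.0% were enriched more than 2-fold in the set-25-labelled library, 22.4% were depleted more than 2-fold in met-2, and 49.5% passed neither. The described regions were therefore limited to windows that were also enriched in the higher library, 3.44% of all windows for met-2 and 5.96% for the set-25-labelled library.

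**Figure D2:**
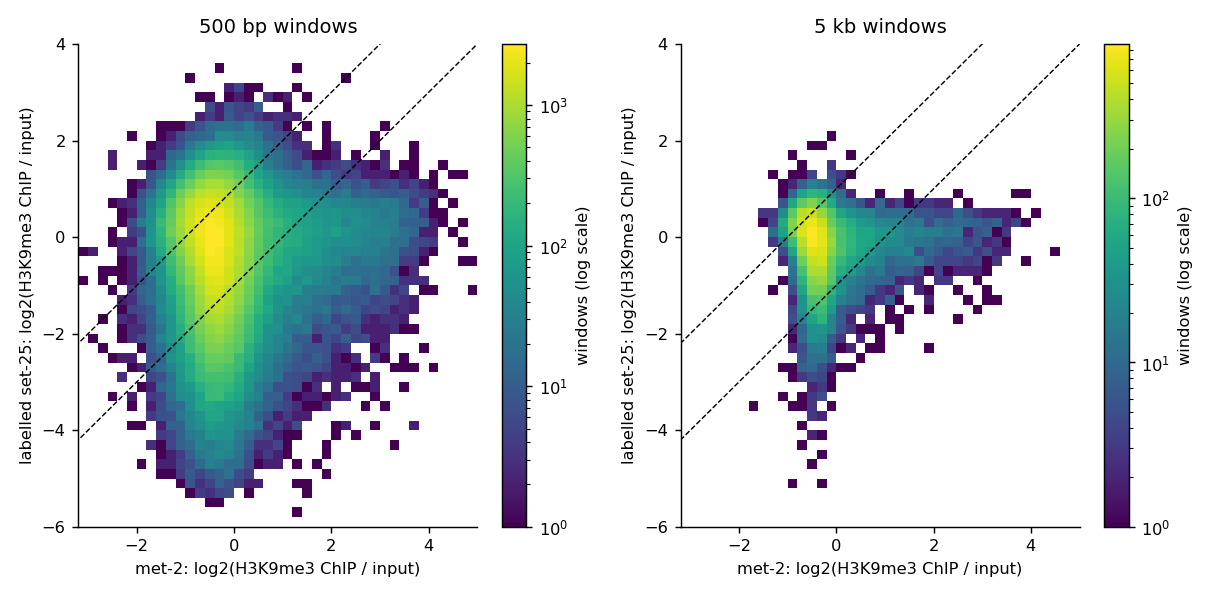
Number of windows (colour, log scale) by log2 enrichment of H3K9me3 in met-2 (horizontal) and in the set-25-labelled library (vertical), for 500 bp windows (left) and 5 kb bins (right), with dashed lines at differences of 1 and -1. Enriched windows of met-2 form a flat tail to the right, where the set-25-labelled library is near 0, windows enriched in the set-25-labelled library form a cap at the top, where met-2 is near or below 0, and no tail follows the diagonal.

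Enriched windows differed in how they were arranged. The 6579 windows that were higher and enriched in met-2 formed 1711 runs, with 674 runs of 3 or more windows, 419 of 5 or more, 168 of 10 or more and 38 of 20 or more. The 11387 windows that were lower in met-2 and enriched in the set-25-labelled library formed 9304 runs, with 289 of 3 or more, 23 of 5 or more and 0 of 10 or more. Single windows were 11.6% of the first set and 67.0% of the second. The ChIP columns themselves differed in texture: the log2 counts of adjacent windows correlated at 0.69 in the met-2 ChIP and 0.46 in the ChIP labelled set-25, and even counts made up 50.0% and 52.1% of the windows with a count (49.8% to 50.1% in the other 6 columns of the series). Together with the empty windows given above, their part in the short runs was not tested. The longest run measured 28.5 kb for met-2 and 4 kb for the set-25-labelled library. Windows empty in the ChIP labelled set-25 were judged by their 5 kb values here, and the 28.5 kb run held 4 of them.

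The longest run in each of 16 chromosome parts (left arm, middle and right arm of each autosome, and the measured part of X) was taken in each direction. In the runs that were higher in met-2, which measured 5 to 28.5 kb, met-2 stood between 1.47 and 3.51 (median 2.73), and the set-25-labelled library between -0.61 and 0.58 (median 0.11). These runs were chosen for their difference, so the difference itself, 1.64 to 3.32, is a description. The choice required of the set-25-labelled library only that each window be at least 1 below met-2.

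The largest difference among these runs was on the middle of I, from 4057501 to 4073500. The met-2 ChIP held 210410 counts there and the met-2 input 36009, and the ChIP and input labelled set-25 held 7170 and 15702. The log2 enrichments were 3.51 for met-2 (3.49 to 3.52) and 0.19 for the set-25-labelled library (0.15 to 0.23), a 9.96-fold difference. Per 500 bp window this was 112 CPM in the met-2 ChIP and 9.85 in its input, and 11.3 CPM in the ChIP labelled set-25 and 9.93 in its input. The inputs were thus alike and the ChIPs were not.

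The longest run, 28.5 kb on the middle of II from 7726501 to 7755000, had 37.4 CPM per window in the met-2 ChIP and 5.90 in the met-2 input, against 4.38 CPM in the ChIP labelled set-25 and 6.66 in its input. Single windows ran from 353 to 6231 counts in the met-2 ChIP and from 0 to 314 in the ChIP labelled set-25, with 4 of 57 windows empty. It was 9.63-fold higher in met-2, and the set-25-labelled library was below its input there. The middle of V, from 6138501 to 6162500, was similar, at 43.3 and 6.19 CPM in met-2 and 5.07 and 6.67 CPM under the set-25 label, a 9.20-fold difference.

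Each arm is 25% of its chromosome and each middle part 50%, so fewer windows were searched on an arm. On the arms the longest runs were shorter, 5 to 14.5 kb, and 9 of the 10 lay in a range of 3.13- to 7.04-fold. The tenth, 6.5 kb on the left arm of I from 2054501 to 2061000, was 7.24-fold higher, with 50211 ChIP counts over 12227 input counts in met-2 and 2388 over 5412 under the set-25 label. On the right arm of III, from 13230001 to 13236000, met-2 reached 3.24 and the set-25-labelled library 0.58, its highest value in any of the 16. That run lay to the left of the raised stretch at the set-25 windows and did not touch it. The smallest difference was on the right arm of IV, from 16313501 to 16318500, at 1.79 in met-2 and 0.14 in the set-25-labelled library, 3.13-fold. On X the longest run, from 3227501 to 3244000, stood at 2.89 in met-2 and 0.10 in the set-25-labelled library.

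The runs of higher H3K9me3 in met-2 carried H3K9me2 of the same strain above input in all 16, at 0.40 to 1.23. Of all kept windows 49.6% were above input for it, a share of single windows and not of summed runs. H3K9me2 of set-25, from libraries that carried the set-25 deletion as labelled, varied over a far wider range in the same runs, -1.51 to 3.74. It was highest in the run from 2667501 to 2674500 on the left arm of III (3.74), in that from 2783001 to 2793500 on the left arm of V (2.85), and on the right arm of IV (2.37), and lowest on the middle parts of II (-1.51) and V (-1.17) named above. The runs high in met-2 H3K9me3 thus included some with strong and some with little H3K9me2 in set-25 embryos.

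**Figure D3:**
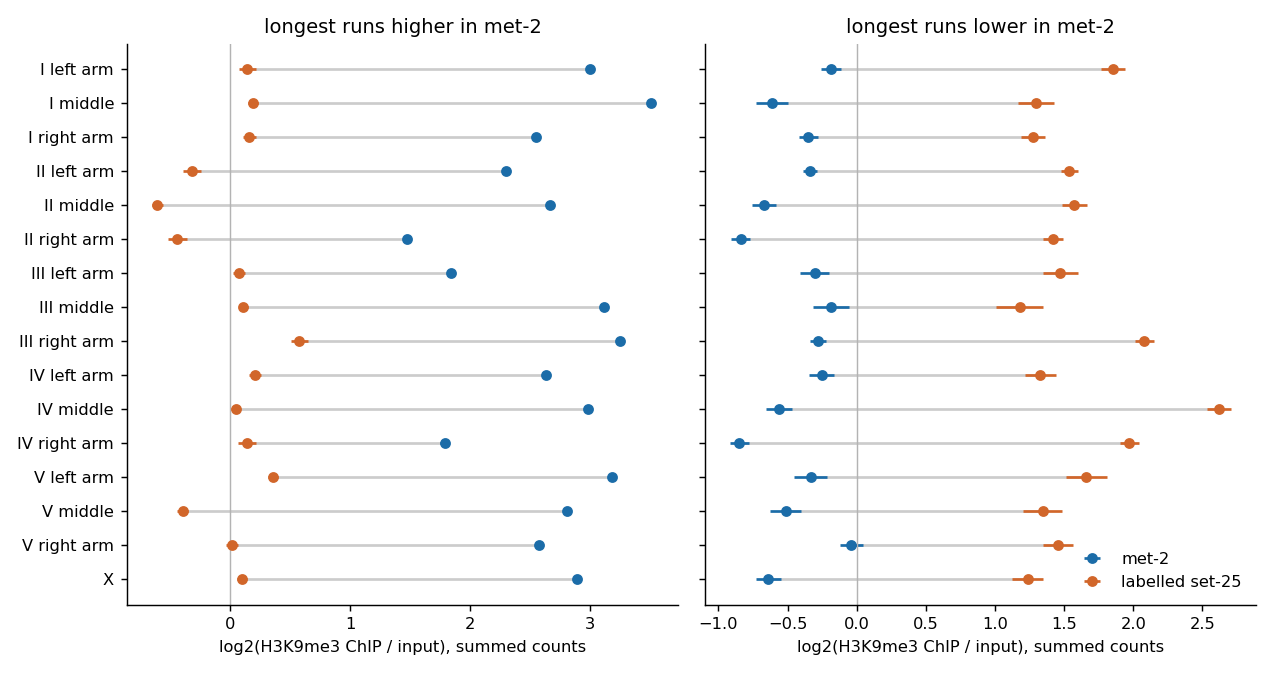
Log2 enrichment of H3K9me3 (horizontal) in met-2 and in the set-25-labelled library for the longest run of each chromosome part, for runs higher in met-2 (left) and lower in met-2 (right); points are summed counts and bars 95% counting intervals, which are narrower than the point in many cases. On the left the set-25-labelled library stays between -0.61 and 0.58, and on the right met-2 stays between -0.85 and -0.04.

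In the opposite direction the longest runs measured 1.5 to 4 kb. The library labelled set-25 stood there between 1.18 and 2.62 (median 1.47), and met-2 between -0.85 and -0.04. Met-2 was below its input in 76.8% of all kept windows, so values below 0 are not particular to these runs, and the interval on the right arm of V (-0.12 to 0.04) included 0. In the 5 equal groups of windows by H3K9me2 input coverage described below, 13 of the 16 had a median group of 2 or lower and 7 of these a median of 1, the least covered group, where the set-25-labelled library had a median of 0.41 over all windows. Of the 16 runs higher in met-2, 9 had a median group of 2 or lower and 2 a median of 1. The largest difference was on the middle of IV, from 9771001 to 9773000, where the met-2 ChIP held 1248 counts over 3582 in its input and the ChIP labelled set-25 held 3591 over 1461. Single windows ran from 164 to 558 counts in the met-2 ChIP and from 210 to 2363 in the ChIP labelled set-25. The log2 enrichments were -0.56 for met-2 (-0.65 to -0.47) and 2.62 for the set-25-labelled library (2.53 to 2.71), so that met-2 was 9.07-fold lower.

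The next was on the right arm of IV, from 14032501 to 14035000, at -0.85 in met-2 and 1.97 in the set-25-labelled library (7.06-fold lower in met-2). The third was the stretch directly to the right of the set-25 windows on III (5.13-fold lower in met-2). The other 13 were 2.58- to 4.79-fold lower in met-2. The inputs of met-2 were above those labelled set-25 in all 16, by 0.05 to 0.45 on the log2 scale, while in the runs higher in met-2 the same ratio was between -0.20 and 0.25. From the ChIP libraries alone, without inputs, the 16 differences were -3.10 to -1.23. The same ChIPs and inputs entered the choice of these runs, so these values are descriptions. H3K9me2 in these 16 runs was between -0.36 and 0.55 in met-2 and between -2.39 and 2.54 in set-25. In set-25 it was above 1 in 5 of the 16 runs and in 10.3% of all kept windows. That share is of single windows and not of summed runs, and it is not adjusted for coverage. In the least covered group, 9381 of 38233 windows were above 1 in set-25, so no excess in these runs can be read from the 2 values.

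Each library was also read at sites picked from the other. Windows were grouped by the met-2 value of the 500 bp window itself, without the 5 kb sums, and the value of the set-25-labelled library, which this grouping did not use, was read in each group. Its median was -0.08 where met-2 lay at or below -1 (16324 windows), -0.23 between -1 and 0 (128805), -0.29 between 0 and 1 (38181), -0.10 between 1 and 2 (5032), 0.02 between 2 and 3 (2030) and 0.14 above 3 (768, median met-2 value 3.29). Windows above 1 in the set-25-labelled library made up 6.0%, 4.38% and 5.60% of the 3 highest groups, against 6.82% of all windows. The medians of the set-25-labelled library thus stayed between -0.29 and 0.14 over the whole range of met-2, whose own group medians ran from -1.17 to 3.29. Where met-2 was above 0 the medians of the set-25-labelled library rose from group to group. They are not adjusted for the coverage of the H3K9me2 inputs described below. Empty windows of the set-25-labelled library, read from 5 kb sums, were 8.57% to 11.9% of the 3 lowest groups and 0.52% to 2.54% of the 3 highest. This grouping was chosen after the data were seen; with the met-2 value of those windows also taken from the 5 kb sums, which makes the groups depend on the ChIP labelled set-25, the medians were between -0.27 and 0.14 and 14455 windows lay at or below -1.

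The medians were similar in 5 kb bins, whose counts are less noisy. In the set-25-labelled library they were -0.05, 0.05 and 0.18 where met-2 lay between 1 and 2, between 2 and 3 and above 3. Of 850 bins (4.37%) enriched more than 2-fold in met-2, 0 were above 1 in the set-25-labelled library, whose highest value in them was 0.94. Only 79 of all bins (0.406%) were above 1 in that library, so a count of 0 is near the share over all bins. Those 79 bins were below 1 in met-2, at -1.25 to 0.36 with a median of -0.41. Most bins were below 1 in met-2, since 4.37% of all were above it, so these counts do not show that the 2 sets avoid each other. Of all bins 41.8% lay in the middle of autosomes, 41.5% on arms and 16.7% on X. The met-2 bins lay in the middle in 547 cases, on arms in 216 and on X in 87. Of the bins enriched in the set-25-labelled library, 67 lay on arms, 7 in the middle and 5 on X, with 23 on II, 16 on V, 15 on III and 10 each on I and IV (15.5%, 20.9%, 14.0%, 15.3% and 17.6% of all bins lay on II, V, III, I and IV).

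At the edges of 214 met-2 domains (runs of at least 10 windows above 1 in their own 500 bp values, 1783 kb in all, and 216 runs of 1818 kb with the 5 kb sums) the median of met-2 was 0.68 in the last window outside, 1.38 in the first window inside and 2.33 in the fifth. The medians of the set-25-labelled library at the same places were -0.50, -0.16 and 0.03. All its medians inside, -0.16 to 0.03, were above all its medians in the 10 kb outside, -0.52 to -0.23. This step was smaller than that of met-2, but the domains were found in met-2, whose rise at them follows from the choice. Summed over each domain, enrichment inside exceeded that of the flanks 5 to 10 kb away by a median of 2.22 in met-2 (quartiles 1.42 and 2.80), with 206 of 214 domains above their flanks. In the set-25-labelled library, which the choice of domains did not use, the same contrast was 0.15 (quartiles -0.12 and 0.45), with 131 of 214 above. The 2 contrasts are therefore not of the same kind. At 27 runs of at least 5 windows above 1 in the set-25-labelled library, met-2 exceeded its flanks by a median of 0.17 (quartiles -0.24 and 0.35), in 16 of 27. The set-25-labelled library, in which these runs were found, exceeded its own flanks by 1.22, which again follows from the choice.

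**Figure D4:**
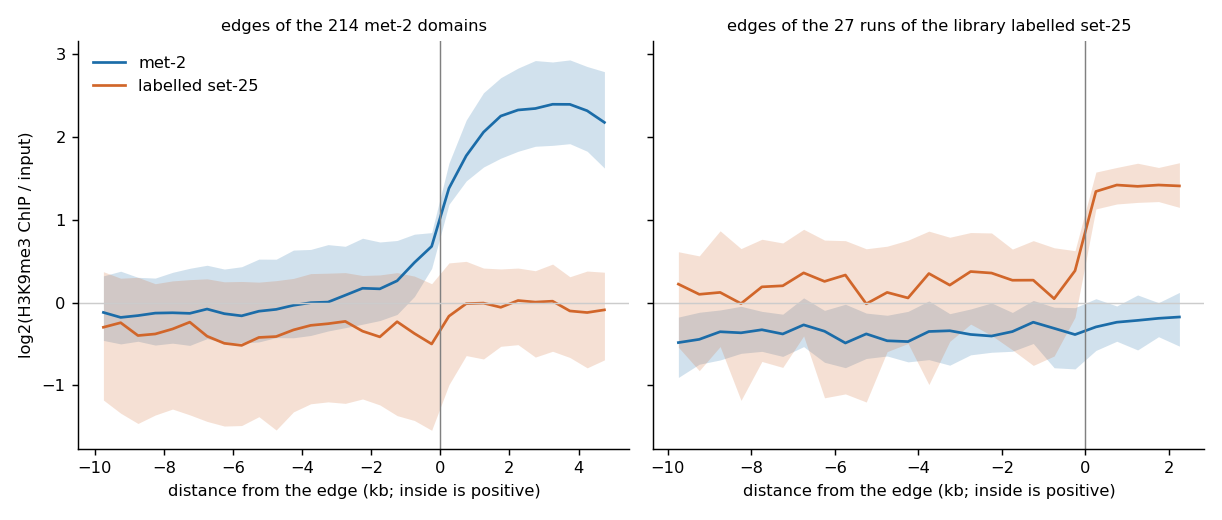
Log2 enrichment of H3K9me3 in 500 bp windows against the distance in kb from the edge of domains found in met-2 (left) and of runs found in the set-25-labelled library (right), with both edges of each domain put together; lines are medians, bands run from the lower to the upper quartile, and empty windows keep their 500 bp value with the pseudocount. The library in which the domains were found steps up at the edge, by construction, while on the left the medians of the set-25-labelled library lie between -0.52 and -0.23 outside and between -0.16 and 0.03 inside, and on the right those of met-2 lie between -0.49 and -0.17.

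Along the chromosomes, windows higher in met-2 lay mainly in the middle of the autosomes and windows lower in met-2 on the arms. Arms, the outer 25% at either end, held 49.5% of the autosomal windows, 33.0% of those higher in met-2 and 69.5% of those lower. The middle of V had the highest share of higher windows, 36.8% with 8.96% lower, and the median difference there was 0.57. The left arm of I (10.6% higher, 36.8% lower), the right arm of III (10.2% and 36.3%) and the right arm of II (11.2% and 35.4%) were at the other end, with medians of -0.68, -0.69 and -0.64. All 5 middle parts had more higher than lower windows and all 10 arms had more lower than higher windows, although on the right arm of IV the shares were close (20.5% and 21.6%). X had 21.8% and 16.8%.

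The mean difference was -0.22 on the arms and 0.45 in the middle, so that arms minus middle was -0.67. It was between -0.74 on III and -0.52 on IV over the 5 autosomes. Both libraries contributed: arms minus middle was -0.20 in met-2 and 0.47 in the set-25-labelled library.

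These shares moved with the coverage of libraries that enter neither ratio. The kept windows were put into 5 equal groups by the mean CPM of the H3K9me2 inputs of both strains. From the least to the most covered group the median of met-2 stayed between -0.42 and -0.33, while that of the set-25-labelled library was 0.41, 0.07, -0.33, -0.56 and -0.81. Windows higher in met-2 were 9.87% of the least covered group and 36.0% of the most covered, and windows lower in met-2 were 43.5% and 6.41%. Of the windows enriched in the set-25-labelled library and lower in met-2, 52.2% lay in the least covered group and 3.27% in the most covered, against 26.1% and 23.5% of the windows enriched and higher in met-2. The median counts of the ChIP labelled set-25 were 163 in the least covered group and 45 in the most covered, and those of its input 284 and 237.

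Arms and middle differed in this coverage, with 31.0% of arm windows and 11.1% of middle windows in the least covered group. Within the 5 groups arms minus middle was -0.51, -0.28, -0.36, -0.39 and -0.41, and -0.39 when averaged over them, against -0.67 over all windows. Within them it was -0.36 to -0.18 in met-2 and 0.09 to 0.23 in the set-25-labelled library. This grouping was chosen after the data were seen. Base composition of the windows was not measured, and its part in these values was not tested.

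**Figure D5:**
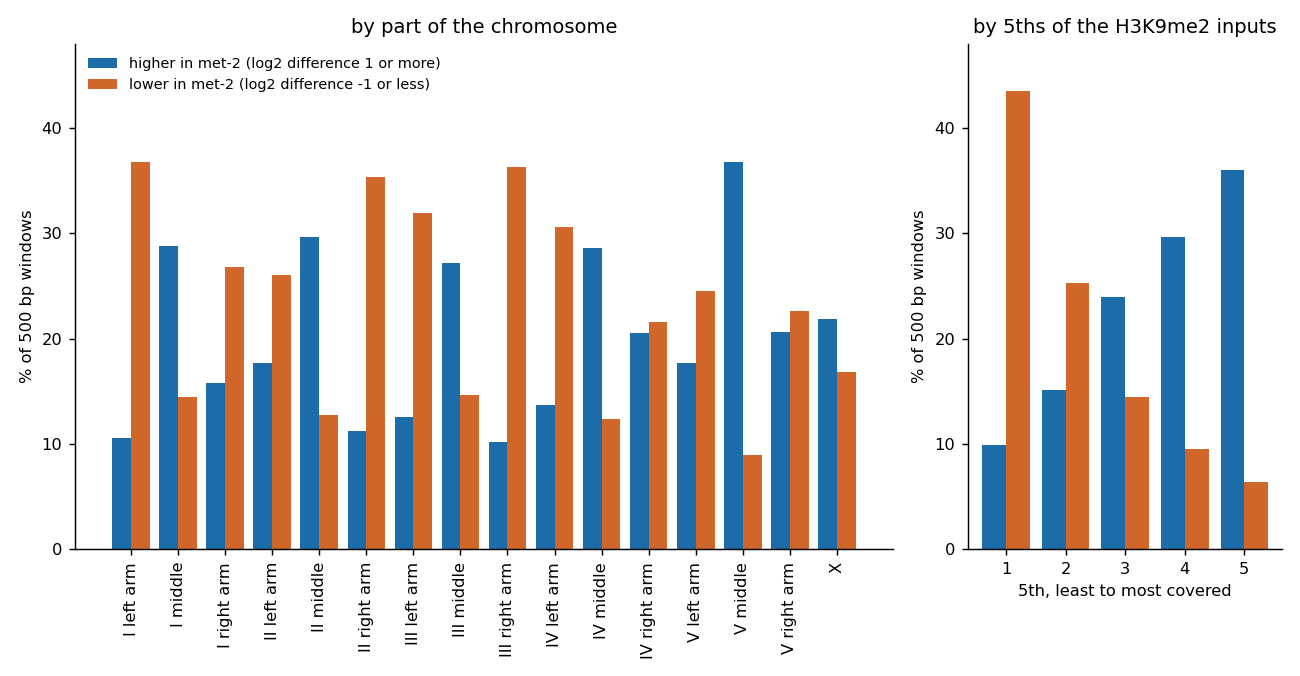
Share of 500 bp windows (%) that were at least 2-fold higher or lower in met-2 than in the set-25-labelled library, by part of the chromosome (left) and by 5 equal groups of windows ordered by the coverage of the H3K9me2 inputs (right). Middle parts have the taller bar for higher and arms for lower, and the shares cross between the second and the third group on the right.

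The H3K9me2 libraries gave sets of kept windows chosen without the H3K9me3 ChIPs, whose inputs entered only through the floor of 20 counts. In the 2563 windows with H3K9me2 above 1 in met-2, the median of H3K9me3 was 1.37 for met-2 (quartiles -0.28 and 2.80) and 0.28 for the set-25-labelled library (-0.12 and 0.64). Of these windows 52.2% were higher in met-2 and 18.1% lower, against 22.9% and 19.9% of all. The median difference was 0.16 in the least covered of the 5 groups above, which held 1721 of them, and 1.90, 2.58, 3.04 and 3.30 in the other groups. Over all windows of these groups it was -0.85, -0.36, 0.09, 0.32 and 0.55, so these windows lay above their group in each. The H3K9me2 input of met-2 is part of both the choice and the grouping.

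In the 19606 windows with H3K9me2 above 1 in set-25, H3K9me3 had a median of -0.40 in met-2 and 0.25 in the set-25-labelled library, with 13.1% higher and 35.6% lower in met-2. The median difference was -0.64 there, and -0.73 and -0.75 where H3K9me2 was above 2 and above 3. Within the 5 groups of coverage these windows differed from the rest of their group by -0.14, -0.25, -0.35, -0.42 and -0.40. In met-2 5.13% of them were above 1 for H3K9me3, and in the set-25-labelled library 14.1%, where all windows gave 4.16% and 6.82%. These shares are not adjusted for coverage, and the least covered group held 9381 of these windows. Within the groups, in the set-25-labelled library 20.3%, 11.6%, 6.78%, 4.50% and 4.37% of these windows were above 1 from the least to the most covered group, against 17.2%, 8.65%, 3.81%, 1.91% and 1.0% of the other windows. In met-2 the shares were 3.45% to 6.24% of these windows and 3.20% to 6.21% of the others. Windows with H3K9me2 above 1 in neither strain (169673), which were most of the kept windows, had a median difference of 0.02.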

How the data were processed

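Per the labels' protocols, embryos were fixed with 2% formalin for 30 min and chromatin was sonicated. Raw counts of 500 bp windows were deposited as a table of 8 columns, 1 for each of 8 groups among 16 samples; the unit was read from the values. The aligner, counting tool, duplicate treatment and genome build behind it were not given in the sources used here. Of 198088 lines, the last was cut short and left out, and X is covered up to 16493500. Each column was assigned by its name to a group and not to a replicate.

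Counts were scaled to column totals, and log2 enrichment used a pseudocount of 0.1 CPM. Windows needed 20 counts in each of 4 inputs; just inside this floor (lowest input 20 to 24 counts) the median difference was -0.51 over 781 windows and just outside (15 to 19) -0.49 over 792. Where the ChIP labelled set-25 was empty, both libraries were read from the counts of the kept windows of the 5 kb bin. Bins used on their own needed 5 kept windows. Regions were the longest run of adjacent windows in each of 16 chromosome parts and direction that differed by at least 1 and were above 1 in the higher library, and region values are summed counts without a pseudocount, with Clopper-Pearson intervals of the ChIP share. Predictions at the mutated genes are the mean of 10 windows to the left and 10 to the right, without the adjacent one. At the median window the Poisson interval was 177 to 234 counts in the met-2 ChIP and 56.3 to 90.7 in the ChIP labelled set-25. PCR reads are not independent molecules, so intervals cover counting error only.

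With 1 column per group no test was run and no p-value is given. The comparison, its regions and its sets were chosen with earlier results of these data known. Python 3.11.15, numpy 2.4.6, pandas 2.3.3 and scipy 1.17.1 were used. On simulated counts with 200 of 191140 windows changed 4- or 8-fold, 100% were recovered, and 0.0414% of the 190940 unchanged windows passed the threshold; simulated draws vary less than real libraries. No genome of the build of the windows was used, so windows carry no gene names.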

Additional observations from a re-analysis of the deposited data

How the results depend on the processing

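The shares of windows higher and lower in met-2 (22.9% and 19.9%) stayed within 1.5 times under all alternatives of pseudocount, input floor, scaling, input, depth and treatment of empty windows, and left that range in 5 kb sums (10.4% and 12.3%) and at thresholds of 0.5 (34.5% and 35.2%) and 2 (8.75% and 1.93%). The median difference (-0.041) changed sign with each library centred on its median (0.101) and with empty windows at their 500 bp value (0.078). It was -0.027 with an input floor of 50, -0.086 with empty windows left out, -0.231 in 5 kb sums, -0.059 with the inputs of the H3K9me2 experiment, -0.117 with the input of the other strain label and -0.086 without input. Arms minus middle (-0.672) stayed negative throughout. It was -0.609 and -0.687 with pseudocounts of 0.5 and 0.02 CPM, -0.748 with empty windows at their 500 bp value, -0.709 in 5 kb sums, -0.527 with the H3K9me2 inputs, -0.472 with the other strain's input, -0.572 without input and -0.388 within the groups of H3K9me2 input coverage, an alternative chosen after seeing the data. The cause of these shifts was not tested.

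All 32 described runs kept their direction in the 8 alternatives computed for them. The runs were chosen for their difference in the same counts, so a kept direction is a description and no independent support. The 16 higher in met-2 stayed at or above 1, and of the 16 lower in met-2, 15 stayed at or below -1 with the H3K9me2 inputs (highest -0.85) and 15 with swapped H3K9me3 inputs (highest -0.98). No paired analysis was possible because the table has 1 column per group and no replicate numbers that pair them, and for the same reason no replicate could be left out. The ChIP labelled set-25 cannot be replaced, so every value rests on that library, and its 72 counts in the median window limit single windows more than regions.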

Other observations

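The most covered windows, where the mean of the H3K9me3 inputs was over 100 times its median, were 7 adjacent windows near the right end of I, from 15064001 to 15067500. H3K9me3 enrichment there was -1.45 in met-2 and 0.40 in the set-25-labelled library, a difference of -1.85.

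Across the 191140 kept windows the counts of the ChIP labelled set-25 followed the input of met-2 (Spearman's rho 0.80) more closely than the input labelled set-25 (0.72). The met-2 ChIP followed the met-2 input (0.82) and the input labelled set-25 (0.81) about equally. The inputs of both strain labels followed each other at 0.96. The windows share libraries and depth, so these are descriptions.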
